A study of Mus musculus with 9 samples.

Results

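The Gimap cluster is a run of neighbouring genes that encode GTP-binding proteins of lymphocytes, the GTPases of immunity-associated proteins. It was followed here in germinal center (GC) B cells from mouse spleen, with and without the transcription factor Foxo1. Its members are the entries of the gene tables named Gimap1, Gimap3, Gimap4, Gimap5, Gimap6, Gimap7, Gimap8 and Gimap9, which makes 8 of 23700 entries. No other symbol in the tables began with Gimap. The cluster was selected on the FPKM of Gimap7, which was low in Foxo1-deficient cells in these same libraries. The values of Gimap7 in the comparisons with Foxo1-deficient cells are therefore a description with no test. The other 7 genes were taken for their family and place, and were read from a test over all genes, in the same libraries that led to Gimap7. All 8 passed the filter on low values, with at least 1 FPKM (an abundance corrected for transcript length and library size) in each of the 9 libraries.

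The 9 RNA libraries came in 3 groups of 3. Foxo1-deficient cells carried Foxo1(f/f) together with ERT2cre(KI/+), the receptor knock-in B1-8hi(KI/+) and the marker CD45.1/2, and were sorted as GC B cells with no zone gate. Dark zone (DZ) cells carried Foxo1(+/+) with the same ERT2cre(KI/+) and B1-8hi(KI/+) and the marker CD45.1/1, and were sorted as low in CD86 and high in CXCR4. Light zone (LZ) cells had the same genotype as DZ cells and were sorted as high in CD86 and low in CXCR4. All 3 groups thus shared the tamoxifen-driven recombinase ERT2cre and the antigen receptor B1-8hi, which binds the hapten NP. Both genotypes were transferred together, in equal parts, into C57BL/6 mice, which received NP-CGG in alum on day 0 and tamoxifen on days 7 to 9. About 10000 cells per library were sorted on day 12. ERT2cre can act in any transferred cell that carries it, the hosts kept their own immune cells, and the age of the mice is not given. For the Foxo1(f/f) cells the labels name CD45.1/2 but also a gate negative for CD45.2, and this was not settled. Separate animals are not named for the replicates, so the p-values cover the spread among libraries, which may be technical only. Genotype and zone gate differ together, so in a comparison of Foxo1-deficient cells with DZ or LZ cells the 2 cannot be told apart.

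Gimap proteins bind GTP and sit on membranes inside lymphocytes, where several of them bear on whether the cell survives or dies. Loss of Gimap5 in mice and rats depletes T cells, and mice need Gimap1 for mature B and T cells. In the dark zone of a GC, B cells divide and mutate their antigen receptor, and in the light zone they compete for antigen and T cell help. Foxo1 is a forkhead transcription factor that B cells use at several stages, including the dark zone program.

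In the coordinates of the files (mm9, chromosome 6), the cluster ran from 48597233 to 48720850, a span of 123.6 kb. The order was Gimap8, Gimap9, Gimap4, Gimap6, Gimap7, Gimap1, Gimap5 and Gimap3, and no gene outside the family lay between the first and the last. Gimap7 occupied 48668620 to 48674635, between Gimap6 (48651582 to 48658243) and Gimap1 (48689046 to 48693794). Gimap4 occupied 48634577 to 48642061, next to Gimap9 at 48626134 to 48628703. Gimap8 spanned 48597233 to 48610874, Gimap5 spanned 48696196 to 48704199 and Gimap3 spanned 48714463 to 48720850. Gimap5 and Gimap3 are close copies. Of the 50-base windows of their GENCODE M21 transcripts, 190 were identical, which is 9.98% of the windows of Gimap5 and 7.52% of those of Gimap3. The split of reads between these 2 genes is therefore uncertain, while the other 6 members shared no such window.

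Promoter windows of 300 bases, from 250 before to 50 after the start site, were taken from RefSeq (GRCm38.p6, a later build than that of the files). The table held 9 windows, at least 1 for each of the 8 genes. Shown are those of Gimap7, of Gimap4 and Gimap3, the 2 genes with the largest tested differences from LZ cells, and of Gimap9, the gene whose zone means were closest. Capitals mark a match to a Foxo-type forkhead motif (GTAAACA) or an Ets-type motif (AGGAAGT), searched on both strands.
Gimap7, chr6:48718371-48718670, + strand: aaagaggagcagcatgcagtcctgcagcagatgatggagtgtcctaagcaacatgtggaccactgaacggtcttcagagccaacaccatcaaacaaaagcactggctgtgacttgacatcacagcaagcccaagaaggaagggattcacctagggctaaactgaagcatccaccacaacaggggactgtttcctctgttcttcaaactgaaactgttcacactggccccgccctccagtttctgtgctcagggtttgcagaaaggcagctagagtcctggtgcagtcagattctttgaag
Gimap4, chr6:48684328-48684627, + strand: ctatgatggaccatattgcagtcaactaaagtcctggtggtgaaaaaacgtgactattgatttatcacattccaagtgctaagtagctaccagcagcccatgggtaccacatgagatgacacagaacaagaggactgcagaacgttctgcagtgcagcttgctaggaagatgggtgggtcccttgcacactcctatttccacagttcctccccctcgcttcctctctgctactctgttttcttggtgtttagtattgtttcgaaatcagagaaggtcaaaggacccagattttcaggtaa
Gimap3, chr6:48770802-48771101, - strand: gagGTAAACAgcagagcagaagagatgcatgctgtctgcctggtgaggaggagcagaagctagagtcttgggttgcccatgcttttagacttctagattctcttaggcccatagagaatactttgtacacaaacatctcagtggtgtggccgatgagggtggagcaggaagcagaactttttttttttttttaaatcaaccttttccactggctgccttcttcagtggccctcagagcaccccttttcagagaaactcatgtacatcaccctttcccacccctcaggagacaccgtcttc
Gimap9, chr6:48675885-48676184, + strand: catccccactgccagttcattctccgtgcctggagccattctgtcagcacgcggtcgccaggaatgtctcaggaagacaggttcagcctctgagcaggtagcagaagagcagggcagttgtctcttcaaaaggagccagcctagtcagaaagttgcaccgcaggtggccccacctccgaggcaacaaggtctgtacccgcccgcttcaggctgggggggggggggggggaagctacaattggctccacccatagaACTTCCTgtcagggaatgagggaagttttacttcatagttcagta

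The Foxo-type motif occurred in 1 of the 9 windows, that of Gimap3, where its first base lay at -247 from the start site on the forward strand. Of 32851 windows of this length in the table, 3.65% held it. The Ets-type motif occurred in 3 of the 9 windows, against 9.35% of all. These were the windows of Gimap9 at 6 and Gimap1 at 2, both on the reverse strand, and Gimap5 at -45 on the forward strand. The windows of Gimap7 and Gimap4 held neither string. No window held both motifs, so matches did not overlap, and a match is a string of letters, not a site.

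The libraries listed between 11050 and 12271 genes above 0 and between 8859 and 9674 genes at 1 FPKM or more. Depth is not stated in the files, but the bounds of the Cufflinks intervals gave an estimate of the fragments behind each gene, called implied fragments, with a relative depth of 0.835 to 1.10 between libraries. Foxo1, the targeted gene, had 3.01, 1.79 and 0.808 FPKM in the 3 Foxo1-deficient libraries, at most 3.01 against a lowest wild-type value of 14.8. Markers of myeloid cells differed between the groups. The FPKM of 14 such genes summed to 163.6 to 327.4 in Foxo1-deficient libraries, against 0.206 to 5.33 in DZ and 2.14 to 6.63 in LZ libraries. Their part in the results on Foxo1-deficient cells was not tested. In sorted bulk cells, fewer cells that express a gene and less RNA of that gene per cell cannot be told apart.

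Taken as a whole, the cluster was highest in LZ cells. The FPKM of the 8 genes summed to 145 ± 14.8 in Foxo1-deficient, 169 ± 31.1 in DZ and 308 ± 27.2 in LZ cells (SD, n = 3 each). Every LZ library (281 to 336) lay above every DZ library (134 to 193) and every Foxo1-deficient library (128 to 156), and those last groups overlapped. FPKM is a level per length, so levels of different genes can be set side by side. In Foxo1-deficient cells, Gimap1 (37.7) and Gimap6 (33.5) led and Gimap5 (6.95) and Gimap7 (7.38) were lowest. In DZ cells Gimap6 (43.3) and Gimap1 (34.8) led, while in LZ cells Gimap6 (70.5) and Gimap4 (70.2) did, and Gimap5 was lowest in both zones. The libraries of the leading pair overlapped in each group. Below them, the order in Foxo1-deficient cells was Gimap4, Gimap9, Gimap8, Gimap3, Gimap7 and Gimap5, and in DZ cells it was Gimap9, Gimap4, Gimap7, Gimap3, Gimap8 and Gimap5. In LZ cells it was Gimap1, Gimap3, Gimap7, Gimap9, Gimap8 and Gimap5. Neighbours in the LZ order were separated in every library from Gimap4 through Gimap1 and Gimap3 to Gimap7, and overlapped from Gimap7 down. In Foxo1-deficient cells the step without overlap was that from Gimap6 to Gimap4, and in DZ cells every pair of neighbours overlapped.

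**Figure D1:**
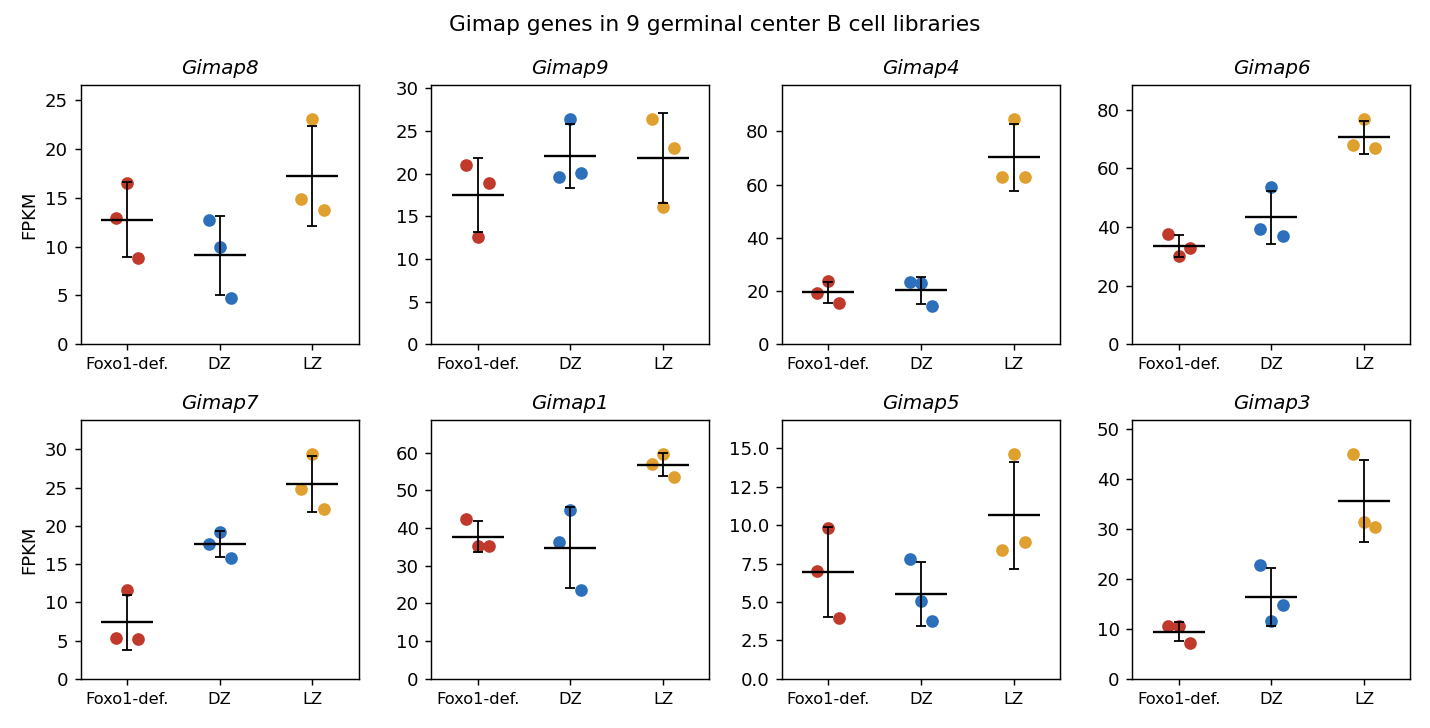
FPKM of each Gimap gene (vertical axes, one scale per gene) in the Foxo1-deficient, DZ and LZ libraries (horizontal axes). Points are libraries, the long bar is the mean and the whiskers are 1 SD (n = 3). Gimap4 sits at 15.5 to 23.6 in Foxo1-deficient and 14.4 to 23.5 in DZ libraries, all under its 62.9 to 84.7 in LZ libraries, whereas the 3 groups of Gimap9 overlap.

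Gimap7, which in human cells is known to stimulate the GTPase activity of its relative GIMAP2, was the member that fixed the choice. It had 5.33, 11.6 and 5.24 FPKM in Foxo1-deficient libraries, against 17.7, 19.3 and 15.9 in DZ and 24.8, 29.5 and 22.2 in LZ libraries. All Foxo1-deficient libraries lay under all others, and replicate 2 stood above the other Foxo1-deficient libraries. The mean in Foxo1-deficient cells was 41.9% of that in DZ and 29.0% of that in LZ cells, with log2 differences of -1.23 from DZ and -1.73 from LZ on the log2(FPKM + 1) scale. These values rest on 26.4 to 66.7 implied fragments per Foxo1-deficient library, the fewest of any member there, and on 76.5 or more in each wild-type library. Between the zones, a contrast that played no part in the choice, all DZ libraries lay under all LZ libraries. The difference was -0.50 and did not pass the threshold of 0.05 (95% interval -1.11 to 0.10, adjusted p = 0.432, limma).

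Gimap4, linked in T cells to the course of programmed cell death, showed the largest zone difference. It had 19.4, 23.6 and 15.5 FPKM in Foxo1-deficient libraries, 23.5, 23.0 and 14.4 in DZ and 62.9, 84.7 and 62.9 in LZ libraries. The Foxo1-deficient and DZ libraries covered the same range, and all 6 lay far under the LZ libraries. Against LZ cells, Gimap4 fell by 1.80 in Foxo1-deficient cells (SE 0.23, adjusted p = 0.00455, limma) and fell by 1.76 in DZ cells (SE 0.23, adjusted p = 0.00590). Both calls held in all 17 alternatives tried. Between Foxo1-deficient and DZ cells the difference was -0.04, with a 95% interval of -0.56 to 0.47 (adjusted p = 0.952).

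Gimap6, which binds the autophagy protein Gabarapl2, had 37.5, 30.0 and 32.9 FPKM in Foxo1-deficient libraries, 39.4, 53.5 and 36.9 in DZ and 67.8, 76.9 and 66.8 in LZ libraries. All LZ libraries were above all others, while the lowest DZ library was under the highest Foxo1-deficient library. Gimap6 fell by 1.06 in Foxo1-deficient cells against LZ (SE 0.18, adjusted p = 0.0157, limma). The call was lost without Foxo1-deficient replicate 2 (adjusted p = 0.0519) or without any of LZ replicates 1, 2 and 3 (0.0562, 0.0702 and 0.0537). In DZ cells the difference from LZ was -0.71 (adjusted p = 0.0762), and between Foxo1-deficient and DZ cells it was -0.35 (95% interval -0.73 to 0.04, adjusted p = 0.362).

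Gimap3 lies at the other end of the cluster from Gimap8 and acts at intracellular membranes, with a known role in T cell survival in mice. It had 10.5, 10.6 and 7.19 FPKM in Foxo1-deficient libraries, 22.7, 11.5 and 14.7 in DZ and 45.0, 31.3 and 30.4 in LZ libraries. Every Foxo1-deficient library was under every wild-type library, although DZ replicate 2 came close. The separation from the DZ libraries depends on how reads were divided between Gimap3 and Gimap5. Against LZ it fell by 1.80 in Foxo1-deficient cells (SE 0.27, adjusted p = 0.00898, limma), a call lost without LZ replicate 1 (adjusted p = 0.0519). Against DZ the difference was -0.70 and did not pass (95% interval -1.30 to -0.10, unadjusted p = 0.0256, adjusted p = 0.228). The zone difference of -1.10 also missed the threshold (adjusted p = 0.0741), and passed with the replicate number as a block (0.0473) or with voom weights on implied fragments (0.0328).

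Gimap5, the close copy of Gimap3, was the lowest member in DZ and LZ cells. It had 7.03, 9.84 and 3.99 FPKM in Foxo1-deficient libraries, 7.80, 5.04 and 3.74 in DZ and 8.36, 14.6 and 8.90 in LZ libraries. DZ lay under LZ in every library, while Foxo1-deficient libraries overlapped both. None of its differences passed: -0.58 for Foxo1-deficient against LZ (adjusted p = 0.513, limma), 0.26 against DZ (0.769) and -0.84 for DZ against LZ (0.282). The ratio of Gimap3 to Gimap5 FPKM was 1.496, 1.077 and 1.804 in Foxo1-deficient libraries, against 2.91, 2.29 and 3.94 in DZ and 5.38, 2.13 and 3.41 in LZ libraries. Every Foxo1-deficient library was thus lower than every wild-type library in this ratio. Because reads can be assigned to either copy, the ratio depends on how Cufflinks divided them.

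Gimap1 was the leading member in Foxo1-deficient cells. It had 42.5, 35.3 and 35.4 FPKM in Foxo1-deficient libraries, 36.2, 44.8 and 23.4 in DZ and 57.0, 59.7 and 53.6 in LZ libraries. The LZ libraries were above all others, and the Foxo1-deficient libraries lay within the range of the DZ libraries. Its differences were -0.58 for Foxo1-deficient against LZ (adjusted p = 0.256, limma), 0.15 against DZ (95% interval -0.32 to 0.63, adjusted p = 0.777) and -0.74 for DZ against LZ (adjusted p = 0.130). The zone difference passed with voom weights (adjusted p = 0.0480) and in no other alternative. The direction against DZ was turned by median centring (-0.02) and by leaving out DZ replicate 3 (-0.10).

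Gimap8, the member with the longest span in the files (13642 bases), had 13.0, 16.5 and 8.83 FPKM in Foxo1-deficient libraries, 12.7, 9.91 and 4.73 in DZ and 14.9, 23.1 and 13.7 in LZ libraries. DZ lay under LZ in every library and the Foxo1-deficient libraries overlapped both. The differences were -0.41 for Foxo1-deficient against LZ (adjusted p = 0.659, limma), 0.50 against DZ (0.529) and -0.90 for DZ against LZ (0.249). Gimap9 had 21.0, 12.6 and 18.9 FPKM in Foxo1-deficient libraries, 19.6, 26.4 and 20.1 in DZ and 26.4, 16.1 and 22.9 in LZ libraries. It was the only member whose DZ and LZ libraries overlapped. Its zone difference was 0.03 with a 95% interval of -0.52 to 0.57 (adjusted p = 0.980), and Foxo1-deficient cells differed by -0.31 from LZ (0.640) and by -0.34 from DZ (0.550).

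Side by side, the members differed most from LZ cells. Gimap7, whose values in Foxo1-deficient cells chose the cluster, is left out of the counts and medians for those cells, which cover the other 7 members. In Foxo1-deficient against LZ cells all 7 changes were below 0, as were 52.0% of the 10004 genes tested. The median of the 7 was -0.58, against -0.02 over all tested genes. Called lower were 3 of 7 (Gimap3, Gimap4 and Gimap6), where 0.87% of tested genes were called lower. All Foxo1-deficient libraries lay under all LZ libraries in 4 of 7, namely Gimap1, Gimap3, Gimap4 and Gimap6. Of all tested genes, 9.37% did so.

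Against DZ cells the members split. In Foxo1-deficient against DZ cells 4 of 7 were below 0 and 3 above (Gimap1, Gimap5 and Gimap8), and 38.8% of tested genes were below 0. Their median was -0.04, against 0.12 over all tested genes, and turned above 0 without Foxo1-deficient replicate 3 (0.10), DZ replicate 1 (0.08) or DZ replicate 2 (0.06). By the test, 0 of 7 members were called by limma in either direction, where 0.75% of tested genes were called lower and 2.1% higher. At an unadjusted p under 0.05, 1 of these 7 passed (Gimap3), as did 1629 of the 10004 tested genes in either direction. The voom fit also called 0 of 7, as did each of the other alternatives. Of the 7, Gimap3 had every Foxo1-deficient library under every DZ library, which 5.78% of tested genes did. That separation depends on the uncertain split of reads between Gimap3 and Gimap5. Median centring moved the median of all genes by over 0.1, to -0.06, and with it 5 of the 7 were below 0 with a median of -0.22.

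DZ against LZ cells, the contrast that the choice of Gimap7 did not use, gave 7 members below 0 and 1 above (Gimap9). The median was -0.79, against -0.15 over all tested genes, of which 65.0% were below 0. Only Gimap4 was called, where 1.38% of tested genes were called lower. An unadjusted p under 0.05 was found in 6 of 8 members and, in either direction, in 1542 of the 10004 tested genes. In 7 of 8 members every DZ library lay under every LZ library, against 17.1% of tested genes. Under median centring the median of all genes went to 0.04 and that of the members to -0.60, with the same number below 0. Gimap9 turned to -0.10 without DZ replicate 2 and to -0.16 without LZ replicate 2.

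**Figure D2:**
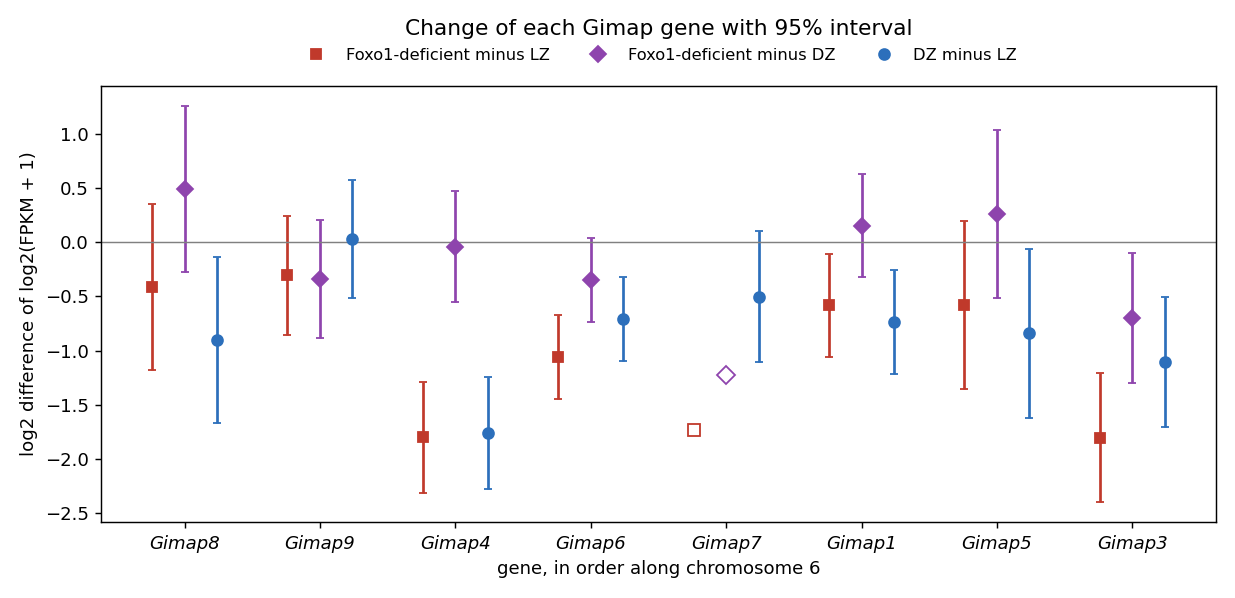
Log2 difference of log2(FPKM + 1) (vertical axis) for each member in its order along chromosome 6 (horizontal axis), for Foxo1-deficient minus LZ, Foxo1-deficient minus DZ and DZ minus LZ cells, with 95% intervals from limma. Open symbols without intervals are the values of Gimap7 that chose the cluster. Gimap4 is at -1.80 and -1.76 against LZ and at -0.04 against DZ, while Gimap9 stays between -0.34 and 0.03.

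Foxo1-deficient cells were sorted without a zone gate, so they were also set against the midpoint of the LZ and DZ means, which is not a measured whole wild-type GC. Gimap3 fell by 1.25 (adjusted p = 0.0195, limma), Gimap4 fell by 0.92 (0.0438) and Gimap6 fell by 0.70 (0.0401), where 0.80% of tested genes were called lower. By construction, the Gimap4 value is the mean of its differences from LZ (-1.80) and from DZ (-0.04). For Gimap4 and Gimap6, Foxo1-deficient and DZ libraries overlapped. Gimap7 was at -1.48, a description with no test. Besides Gimap7, 6 of 7 members were below 0 (7 of 7 with median centring or quantile normalization, where Gimap8 turned), as were 44.2% of tested genes. The other 4 members lay between -0.32 and 0.04, and none of them passed. The Gimap3 call was lost without Foxo1-deficient replicate 3 (adjusted p = 0.0872), and those of Gimap4 and Gimap6 were each lost in 10 of 16 alternatives. Of the 7, Gimap3 had every Foxo1-deficient library under all 6 wild-type libraries, which 2.02% of tested genes had. Its separation from the DZ libraries depends on the uncertain split of reads with Gimap5.

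The members did not keep fixed proportions. Gimap4 and Gimap9 are neighbours, yet the ratio of their FPKM was 0.925, 1.88 and 0.821 in Foxo1-deficient libraries, against 1.19, 0.872 and 0.714 in DZ and 2.38, 5.26 and 2.74 in LZ libraries. Every LZ library lay above every other, and the Foxo1-deficient and DZ libraries overlapped. Gimap4 made up 13.4% ± 2.00 of the summed FPKM of the cluster in Foxo1-deficient, 11.9% ± 1.18 in DZ and 22.7% ± 2.39 in LZ cells (SD, n = 3 each). Gimap9 made up 12.2% ± 3.38 in Foxo1-deficient, 13.2% ± 2.07 in DZ and 7.18% ± 2.08 in LZ cells. The share of Gimap7, which contains the values that chose it and is a description only, was 5.08% ± 2.31 in Foxo1-deficient, 10.5% ± 1.13 in DZ and 8.24% ± 0.472 in LZ cells. With Gimap7 left out, the sum of the other 7 genes was 137 ± 14.1 in Foxo1-deficient, 151 ± 29.5 in DZ and 283 ± 23.6 in LZ cells, so the order of the groups did not rest on it.

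**Figure D3:**
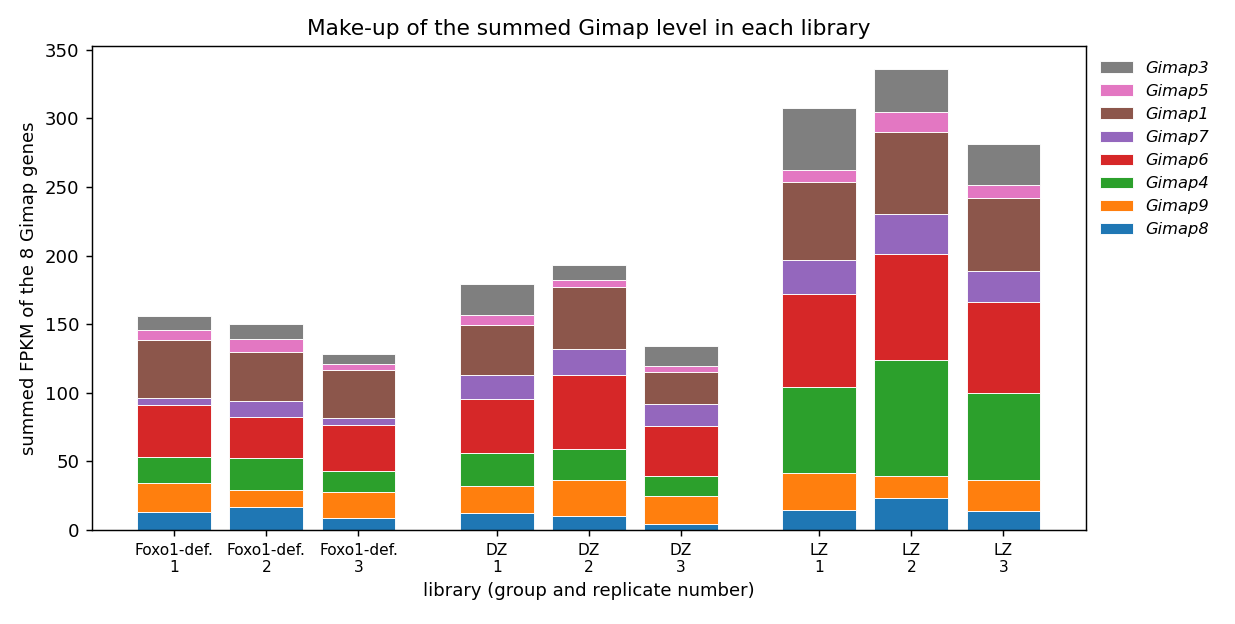
Summed FPKM of the 8 Gimap genes (vertical axis) in each library (horizontal axis), stacked by gene from Gimap8 at the bottom to Gimap3 at the top. The LZ bars reach 281 to 336, against 128 to 156 in Foxo1-deficient and 134 to 193 in DZ libraries, and the Gimap4 segment is tallest in LZ.

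Gimap7 was also set against its neighbours within each library. The ratio of Gimap7 to Gimap1 was 0.126, 0.328 and 0.148 in Foxo1-deficient libraries, against 0.488, 0.430 and 0.677 in DZ and 0.435, 0.493 and 0.414 in LZ libraries. The ratio of Gimap7 to Gimap6 was 0.142, 0.386 and 0.159 in Foxo1-deficient libraries, against 0.449, 0.360 and 0.430 in DZ and 0.365, 0.383 and 0.332 in LZ libraries. Foxo1-deficient replicate 2 reached the wild-type range in the ratio to Gimap6 and stayed under it in the ratio to Gimap1. Both ratios contain the values that chose Gimap7 and carry no test.

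Members varied together in part between libraries of 1 group. In DZ replicate 3 all 8 members were under their group means on the log2 scale, as were 72.2% of all tested genes. In Foxo1-deficient replicate 3, the library with the lowest estimated depth (0.835 relative to the 9 libraries), 7 of 8 members were under their group means, against 55.1% of tested genes. In LZ replicate 3, 7 of 8 were, against 54.8% of tested genes. LZ replicate 2 had the highest value of its group in 6 of 8 members, and Gimap9 was the member lowest there. In that library 2 of 8 members were under their group means, against 35.8% of tested genes. Foxo1-deficient replicate 2 was split, with the highest value of its group in 5 members and the lowest in 3. As a description over the deviations of 9 libraries from their group means, r was above 0 in 20 and below 0 in 8 of 28 pairs of members, with a median of 0.354. Gimap8 and Gimap4 had r = 0.98 and Gimap8 and Gimap5 had r = 0.92, while Gimap9 and Gimap7 had r = -0.68 and Gimap9 and Gimap5 had r = -0.645. These libraries share depth and group, and r is given without a p. Tested genes at large also moved together in some of these libraries, and r was not computed for pairs of other genes. Whether the members varied together more than other genes do was therefore not tested.

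The genes around the cluster had low levels. Of the 5 nearest genes on each side, 2 of 10 reached the level needed for a test, 5 never reached 1 FPKM and 4 were listed at 0 in all 9 libraries. Repin1, a zinc finger gene 48.2 kb before the cluster, averaged 1.49 ± 0.923 FPKM in Foxo1-deficient, 2.13 ± 0.266 in DZ and 2.90 ± 2.60 in LZ cells (SD, n = 3 each). Its differences were -0.35 from LZ and -0.39 from DZ (adjusted p = 0.847 and 0.793, limma). Tmem176b, 63.0 kb after it, averaged 4.12 ± 3.44 in Foxo1-deficient, 0.800 ± 0.840 in DZ and 2.04 ± 2.49 in LZ cells, with differences of 0.84 from LZ and 1.35 from DZ (0.649 and 0.374). The highest values of Repin1 and Tmem176b in any library were 5.01 and 7.69 FPKM. Rarres2, Zfp775 and Tmem176a stayed untested, with highest values of 4.40, 1.74 and 4.90 FPKM in any library, and AI854703 stayed at or under 0.836. In each of the 3 groups, every neighbour had a lower mean FPKM than every member.

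**Figure D4:**
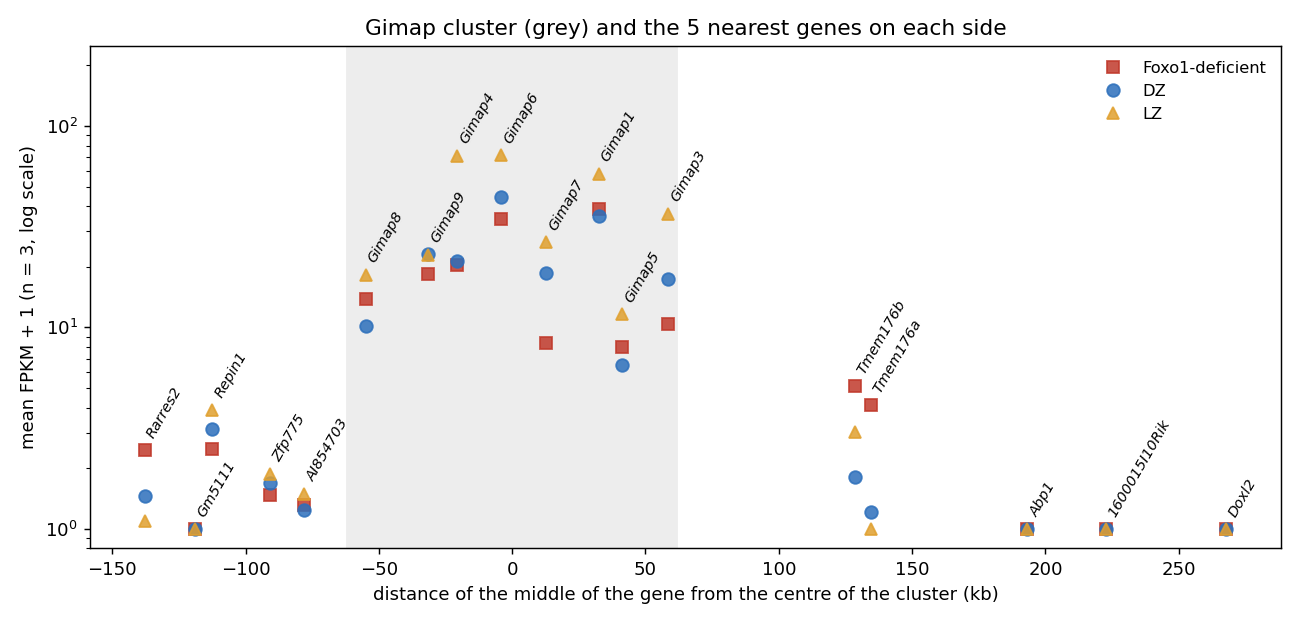
Mean FPKM + 1 on a log scale (vertical axis, n = 3) of the 8 Gimap genes and the 5 nearest genes on each side, against the distance of the middle of each gene from the centre of the cluster in kb (horizontal axis), for Foxo1-deficient, DZ and LZ cells. The grey band is the cluster. No neighbour has a mean above 4.12 FPKM in any group, and Gm5111, Abp1, 1600015I10Rik and Doxl2 are listed at 0 throughout.

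Outside the cluster, the genes whose levels followed Gimap7 most closely over the 9 libraries were Gm10865 (Pearson r = 0.97), Fam3c (0.96), Foxp4 (0.96), Ddt (0.95) and Aars (0.94). This ranking contains the values that chose Gimap7. Gm10865 was near the floor, at 0 FPKM in Foxo1-deficient replicates 1 and 3 and with at most 23.9 implied fragments in any library. Ddt, which encodes D-dopachrome tautomerase, had 7.17, 21.9 and 8.89 FPKM in Foxo1-deficient libraries, against 42.9, 45.6 and 42.1 in DZ and 52.4, 49.7 and 86.1 in LZ libraries. As with Gimap7, its Foxo1-deficient replicate 2 stood above the other 2 and under all wild-type libraries. The genes closest to the mean of the 8 members were Eif4a1 (0.98), Lrmp (0.98), Ldha (0.97), Fcer2a (0.97) and Ncl (0.96). Fcer2a, the low-affinity IgE receptor CD23 of B cells, averaged 22.0 ± 4.18 FPKM in Foxo1-deficient, 30.2 ± 7.22 in DZ and 167 ± 26.1 in LZ cells (SD, n = 3 each). Like Gimap4 it was far higher in LZ cells and overlapped between Foxo1-deficient and DZ libraries. These r values describe 3 groups of 3 libraries that share depth, were the highest of all tested genes, and have no p.

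Several lists of genes were read beside the cluster. Over the 10004 tested genes, limma called 69 higher and 87 lower in Foxo1-deficient against LZ cells. It called 210 and 75 against DZ, and 56 and 138 in DZ against LZ cells. At an unadjusted p under 0.05, in either direction, the counts were 1343, 1629 and 1542 in the same order. Gimap genes are abundant in T cells, so T cell markers were among the lists. Of 21 genes, 2 were tested (Lck and Lat) and limma called 0 in any comparison, with 1 unadjusted p under 0.05, that of Lck between zones. Listed at 0 in all libraries were 6 of them, Cd3e, Cd3g, Cd247, Cd4, Trat1 and Themis, which are named for that after their values were seen. Summed without Lck, which some B cells also express, they reached 1.13 to 4.48 FPKM in Foxo1-deficient, 0.776 to 4.65 in DZ and 2.99 to 7.88 in LZ libraries. With Lck the sums were 19.1 to 25.9 in Foxo1-deficient, 15.5 to 20.7 in DZ and 29.2 to 35.2 in LZ libraries. Lck alone was at 14.6 to 24.8 FPKM in Foxo1-deficient, 10.8 to 19.9 in DZ and 26.2 to 27.4 in LZ libraries, and LZ replicate 1 had 6 of 21 markers at 1 FPKM or more. The sums with Lck were thus highest in LZ cells, as was the cluster, and their part in the Gimap results was not tested. None of 8 NK cell and 10 endothelial markers reached the level for a test, with highest sums of 1.42 and 0.661 FPKM.

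Of 14 myeloid markers, 8 were tested. In Foxo1-deficient cells 7 of them rose against LZ and 8 against DZ (limma), and limma called 0 of 8 between the zones (1 at an unadjusted p under 0.05). Of all 10004 tested genes, 69 were called higher against LZ and 210 against DZ. Most of the 8 markers passed the filter on low values only through the Foxo1-deficient libraries. Their direction was thus set by the filter, and the counts of rising markers are a description. Lyz2, the lysozyme of macrophages and neutrophils, was at 79.9 ± 40.9 FPKM in Foxo1-deficient, 0.0565 ± 0.0978 in DZ and 0.0580 ± 0.1004 in LZ cells (SD, n = 3 each). Per library, the sum over the 14 markers was 163.6, 235.7 and 327.4 FPKM in Foxo1-deficient replicates 1, 2 and 3. The Gimap7 values of those libraries, which chose the cluster, were 5.33, 11.6 and 5.24 FPKM. Whether the myeloid sums and the Gimap7 values are related was not tested.

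Of 13 GC B cell markers, all were tested and none was listed at 0 in any library. In Foxo1-deficient cells 1 fell against LZ (Rgs13), and against DZ 2 fell (Rgs13 and Gcet2) and 1 rose (Ms4a1). Gcet2 also rose in DZ against LZ cells. Of all tested genes, 0.87% were called lower against LZ, and 0.75% lower and 2.1% higher against DZ. Between the zones 56 of 10004 tested genes were called higher in DZ cells. Rgs13, a regulator of G protein signalling typical of GC B cells, was at 48.9 ± 4.74 FPKM in Foxo1-deficient, 87.5 ± 10.9 in DZ and 94.3 ± 13.5 in LZ cells. Its differences were -0.93 from LZ (adjusted p = 0.0176, limma) and -0.82 from DZ (0.0189).

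Naive and memory B cell markers were read because Gimap genes are expressed in resting lymphocytes. Of 15 genes, all tested, 1 rose (Vpreb3) and 2 fell (Fcer2a and Ccr6) in Foxo1-deficient cells against LZ, and 1 rose against DZ (Cr2). Of all 10004 tested genes, 69 were called higher and 87 lower against LZ, and 210 higher against DZ. In DZ against LZ cells 4 fell, Fcer2a, Cr2, Ccr6 and Ly6d, the last of which is named outside the rule for names. Between the zones 1.38% of tested genes were called lower. Ccr6 was listed at 0 in every Foxo1-deficient and DZ library. It passed the filter on low values only through the LZ libraries, at 1.07 to 3.13 FPKM. Its direction in both comparisons was thus set by the filter and is a description. Cr2, the complement receptor CD21, was at 76.5 ± 7.10 FPKM in Foxo1-deficient, 17.3 ± 1.72 in DZ and 48.5 ± 6.63 in LZ cells. Unlike Gimap4, it was higher in every Foxo1-deficient library than in every DZ or LZ library.

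Of 20 genes known as Foxo targets, 14 were tested. Cxcr4, the chemokine receptor used in the zone gates, was lower in Foxo1-deficient than in DZ cells (-1.66) and higher in DZ than in LZ cells (1.10). DZ cells were sorted as high and LZ cells as low in CXCR4, so both differences are a description with no test. Against LZ limma called 0 of 14 in Foxo1-deficient cells, with 3 at an unadjusted p under 0.05. Of all 10004 tested genes, 1343 had such a p in that comparison. Txnip, which binds and inhibits thioredoxin, was at 30.9 ± 2.53 FPKM in Foxo1-deficient, 20.1 ± 5.34 in DZ and 18.2 ± 5.85 in LZ cells (SD, n = 3 each), with differences of 0.78 from LZ and 0.63 from DZ that did not pass (adjusted p = 0.218 and 0.277, limma). Of 14 genes of cell survival and autophagy that have been tied to Gimap proteins, 13 were tested. Limma called 0 of them in Foxo1-deficient cells against LZ, 0 against DZ and 0 in DZ against LZ cells, with 2, 0 and 1 at an unadjusted p under 0.05. Over all 10004 tested genes, 1343, 1629 and 1542 had such a p. The medians of the 13 genes were 0.02, 0.02 and -0.06 in the same order. Gabarapl2, the partner of Gimap6, was at 36.7 ± 14.8 FPKM in Foxo1-deficient, 37.8 ± 7.41 in DZ and 40.7 ± 6.10 in LZ cells, with differences of -0.22 from LZ and -0.10 from DZ (adjusted p = 0.793 and 0.890). Mcl1, an inhibitor of cell death, was at 87.8 ± 3.37 in Foxo1-deficient, 75.5 ± 5.73 in DZ and 79.2 ± 14.1 in LZ cells, and none of its differences passed.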

How the data were processed

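RNA of 9 libraries of sorted mouse GC B cells was compared, 3 each of Foxo1-deficient, DZ and LZ cells. Per the submitters' processing notes, the tools were Cufflinks 2.1.1 and TopHat2 2.0.8 with mm9 as the build, in an unstated order. Per the file headers, each deposited table holds the FPKM of every gene in 1 library, computed by Cufflinks, with interval bounds and a status. The total that the FPKM values were scaled to is not stated.

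Of 23700 entries, 716 of repeated symbols (250) and 7 genes with a failed estimate were left out. The 10004 genes with FPKM of at least 1 in at least 3 libraries were tested with limma 3.58.1 (R 4.3.3, trend) on log2(FPKM + 1), which understates the change of low genes. All 9 libraries entered 1 fit with no replicate block. P-values are two-sided and Benjamini-Hochberg adjusted within each comparison over all tested genes, with a threshold of 0.05. Differences are the group named first minus the second. The comparisons of Foxo1-deficient cells with LZ and with DZ share the 3 Foxo1-deficient libraries. Implied fragments come from the interval bounds read as 2 SD of a Poisson count, and cover counting error only. The fit was also run on simulated data with independent noise for each gene. Those data hold no shifts shared by a library, and the outcome is not reported here.

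The members, the 8 gene lists and the tests were chosen with earlier results of these data known. Named are the members, Foxo1, the 5 nearest genes on each side, the 5 genes most like Gimap7 and the 5 most like the members' mean, and up to 4 genes per list. Those are the genes with the largest change among the called, then those with the highest mean; some results on list genes are not reported here. Alternatives were 2 other pseudocounts, no filter, median centring, quantile normalization, a replicate block, voom weights on implied fragments, only the compared groups, and each library left out.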

Additional observations from a re-analysis of the deposited data

How the results depend on the processing

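Over 17 alternatives for each member and comparison (16 for the midpoint), 444 tested values kept their direction and side of the threshold, 26 lost a call, 3 gained one and 13 changed sign. The 50 values of Gimap7 in Foxo1-deficient comparisons carry no test, and moved by less than the spread between replicates. The lost calls were 1 of Gimap3 and 4 of Gimap6 against LZ, and 21 against the midpoint. The sign changes were of differences near 0 that passed in no alternative. With median centring, Gimap1 turned to -0.0247 against DZ and Gimap8 to -0.0404 against the midpoint, and with quantile normalization Gimap8 turned to -0.0109. With 1 library left out, the values against DZ ran from -0.0979 to 0.3543 in Gimap1 and from -0.2608 to 0.1044 in Gimap4. Gimap1 turned without DZ replicate 3, and Gimap4 without Foxo1-deficient replicate 3, DZ replicate 1 or DZ replicate 2. Between zones Gimap9 ran from -0.1644 to 0.1756 and turned without DZ replicate 2 or LZ replicate 2. Against the midpoint, Gimap5 ran from -0.4184 to 0.1417 and turned without Foxo1-deficient replicate 3. Gimap8 ran there from -0.1492 to 0.2661 and turned without Foxo1-deficient replicate 2, DZ replicate 3 or LZ replicate 3. The median of the 7 members other than Gimap7 against DZ, -0.041, ran from -0.2608 to 0.1044 with 1 library left out. The cause was not tested.

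The counts of called genes over all 10004 tested moved more. Against LZ, 156 became 99 with a pseudocount of 0.1 and 58 with only the compared groups, and 48 to 145 with 1 library left out. Against DZ, 285 became 127 to 246 with 1 library left out. Between zones, 194 became 109 with no filter and 122 with only the compared groups, which leaves fewer samples, and 72 to 210 with 1 library left out. Against the midpoint, 206 became 314 with centring, 312 with quantile normalization, 322 with voom and 116 to 177 with 1 library left out. Scaling moved the split of these calls. Higher and lower calls were 56 and 138 between zones, against 133 and 101 with centring, 89 and 119 with quantile normalization and 108 and 152 with voom. Against DZ they were 210 and 75, against 181 and 225 with centring and 219 and 141 with quantile normalization, and against the midpoint 126 and 80, against 137 and 177 with centring. The labels do not say that a replicate number marks shared hosts. Deviations of same-numbered libraries had r from -0.07 to 0.08, and not every library correlated best with its own number, so they were not treated as pairs, and whether they share animals was not tested. With the replicate number as a block, 137, 221, 161 and 191 genes were called against LZ, against DZ, between zones and against the midpoint. In the block fit Gimap3 passed between zones (adjusted p = 0.0473) and Gimap6 no longer passed against the midpoint (0.0557). Where leaving out a library left 2 in a group, the fit pooled the spread of all groups. Depth limits Gimap7 and Gimap5 most, at 26.4 and 32.9 implied fragments in their lowest Foxo1-deficient library.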
